A study of Homo sapiens with 14 samples.

Results

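Ribosome biogenesis and nucleolar genes were followed in IMR90 cells exposed to dideoxycytidine (ddC), a cytidine analog that ends growing chains of mitochondrial DNA. The set is a fixed list of 44 gene symbols that covers RNA polymerase I and its factors, nucleolar scaffold proteins, the small nucleolar RNA particles, the assembly factors of both ribosomal subunits, and the growth regulator MYC. All 44 were found by symbol among the 27142 genes of the count table, and all 44 passed the low-count filter, which left 13371 genes to test. IMR90 is a fibroblast line from human fetal lung, and each library here came from cells with the genotype given as WT. Cells received 20 uM ddC for 24, 48, 72 or 96 h, with 3 libraries at each time, and untreated cells, which had water as vehicle, gave 2 libraries. The study's text places the untreated cells at 0 h while their own labels give 4 days, so their time in culture is uncertain. Polyadenylated RNA was sequenced with a stranded kit, so the unprocessed ribosomal RNA itself was not measured.

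Ribosomes are built in the nucleolus, where RNA polymerase I transcribes the ribosomal DNA into a long precursor RNA. Box C/D and box H/ACA small nucleolar RNA particles guide its methylation and pseudouridylation, and large assemblies of helicases, GTPases and scaffold proteins fold and cleave it into the small and large subunits. Transcription of the genes for these proteins follows growth signals, and MYC is the best known of the factors that bind their promoters. MYC binds, as a dimer with MAX, the E-box with the letters CACGTG.

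Because MYC is a known regulator of such genes, the promoters of the members are shown first. The RefSeq promoter table (GRCh38.p14) gives 250 bases before and 50 after each start, and it held 36 of the 44 members. CACGTG, which reads the same on both strands, was present in 15 of the 36 (41.7%). A gene counted if any of its promoters held the letters, and 9 of the 36 had more than 1 promoter. The list was chosen and is not a sample of genes, so the share is a description. The same letters stood in 12.4% of the 10033 tested genes with a promoter and in 8.77% of all 27305 genes in the promoter table. A GC-box, GGGCGG on either strand, was present in 75% of the members and in 77.4% of the tested genes. The 15 E-boxes lay close together, with their first base between 31 bases before the start and 36 bases after it, and 11 of them began after the start. Within 50 bases on either side of the start, a window chosen after these positions were seen, the share was 41.7% of the members and 5.2% of the tested genes. In the 250 bases before the start alone it was 8.33% and 11.1%. The windows below show E-boxes of 6 members that the results turn on or that stand for different roles. Each has 30 bases written 5′ to 3′ on the gene's own strand, with the E-box in capitals.
DDX21: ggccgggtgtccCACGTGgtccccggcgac
GNL3: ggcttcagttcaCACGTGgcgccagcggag
UTP20: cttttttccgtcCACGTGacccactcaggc
NOP2: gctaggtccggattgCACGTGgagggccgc
FBL: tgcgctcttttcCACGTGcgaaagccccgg
PES1: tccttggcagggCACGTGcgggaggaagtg
On GRCh38.p14 the DDX21 window is chr10:68956604-68956633 on the plus strand and the GNL3 window chr3:52686026-52686055 on the plus strand. The UTP20 window is chr12:101280083-101280112 on the plus strand and the NOP2 window chr12:6568242-6568271 on the minus strand. The FBL window is chr19:39846356-39846385 and the PES1 window chr22:30591880-30591909, both on the minus strand. A match in these letters is a description of the promoter and not a measured binding site.

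Library totals ranged from 9398703 to 12147402 counts, and levels are given in CPM, counts divided by the scaled library total (scaling factors 0.971 to 1.02) and multiplied by 1e+06. The fibroblast markers COL1A1 (15970 to 22350 CPM), COL1A2 and VIM were high in every library, while S100A4, also on the fibroblast list, had 4.6 to 7.36 CPM. Of the 12 markers of other cell types, CDH1, PECAM1, CDH5 and CD3E were at 0 in every library, whereas the endothelial marker TEK had 34.2 to 46.4 CPM and the blood marker CD68 43.2 to 61.7 CPM. The 4 epithelial markers summed to 60.1 to 65.6 CPM at 96 h, against 46.4 to 49.2 CPM in untreated cells, most of it from KRT18. Their part in the results was not tested. The libraries also differed in a nuclear RNA measure, within groups, and in an antisense index, which was highest at 96 h. A nuclear RNA measure, the mean log2 CPM of the nuclear transcripts MALAT1, NEAT1, MEG3 and KCNQ1OT1, ranged from 4.08 to 6.85 and was low in single libraries at 24, 48 and 72 h. It was 4.66 to 5.82 at 96 h and 5.02 and 6.28 in untreated cells. An antisense index, the reads on genes lying opposite abundant genes per 1000 reads of those genes, was 0.613 to 0.72 in the untreated libraries, at 24 h and in replicates 1 and 2 at 48 h. It was 0.791 in replicate 1 at 72 h and 0.878 to 0.946 in the other libraries, including all 3 at 96 h. The index rests on 80 gene pairs and 393 to 729 opposite-strand reads per library. The labels name no batch, and since the untreated and the 96 h libraries lie wholly on different sides of this split, the exposure to ddC and whatever set the index cannot be told apart in that comparison. In bulk RNA, fewer cells with a transcript and less of it per cell cannot be told apart either.

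**Figure D1:**
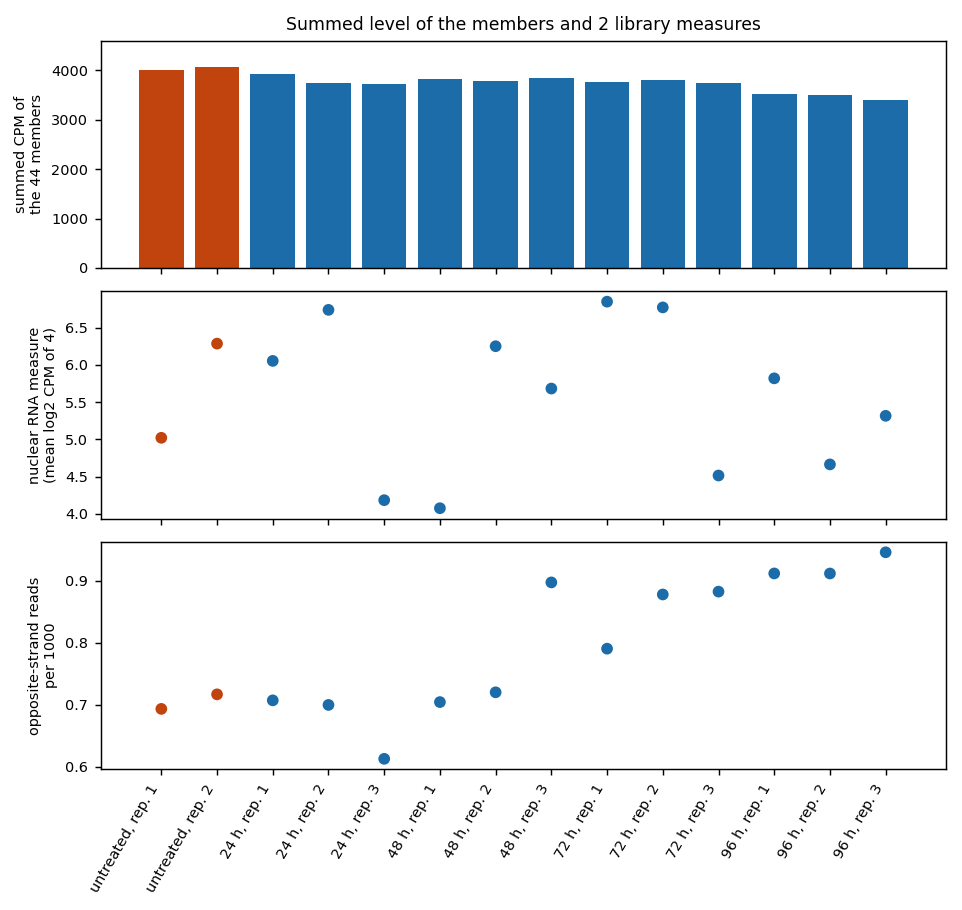
Summed CPM of the 44 members (top), the nuclear RNA measure (mean log2 CPM of 4 transcripts, middle) and the antisense index (opposite-strand reads per 1000, bottom) in each of the 14 libraries, in order of time. The 3 libraries at 96 h have the lowest sums, between 3408 and 3513 CPM, and also lie at the high end of the antisense index, while the nuclear RNA measure varies within every time.

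Together the members held 4035 ± 50.6 CPM in untreated cells (SD, n = 2), 3798 ± 112 CPM at 24 h, 3818 ± 30.1 CPM at 48 h, 3764 ± 31.9 CPM at 72 h and 3476 ± 58.6 CPM at 96 h (SD, n = 3 each). The sum at 96 h was 3513, 3506 and 3408 CPM in the 3 libraries, against 4000 and 4071 CPM in the 2 untreated libraries, and no library of the other times fell to the 96 h range. The most abundant member was NCL, the RNA-binding protein nucleolin, at 995.2 ± 2.97 CPM in untreated cells (SD, n = 2). Per kilobase of transcript, the untreated level was 368.5 for NCL, 156.6 for NPM1, 102 for FBL and 67.1 for NOP56, in CPM. The lowest was BOP1 at 1.98 CPM per kilobase, below POLR1B at 4.73, UTP15 at 5.57 and UTP20 at 6.45. The median member stood at 19.94 CPM per kilobase and the median tested gene at 8.54. Of the 43 neighbouring pairs in this order, 23 had untreated values that overlapped, most of them in the middle of the range.

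After 96 h of ddC the members were lower almost throughout. Of the 44, 42 had a negative log2 fold change against untreated cells, with a median of -0.20 (a fold of 0.871), while 50.8% of all tested genes were negative, with a median of -0.00386. By edgeR's quasi-likelihood test, adjusted over all tested genes, 9 members fell and 0 rose, where 2.11% of all tested genes were called lower and 3.57% higher. The 9 were POLR1A and UBTF of RNA polymerase I transcription, the nucleolar proteins NCL, NOLC1, GNL3 and DDX21, NOP56 of the box C/D particle, and UTP15 and RRP12 of small subunit assembly. At an unadjusted p under 0.05 there were 26 lower and 1 higher, beside 1200 lower and 1449 higher of the 13371 tested genes. In 33 members all 3 libraries at 96 h lay below both untreated libraries, and in 1, MYC, they lay above. Among all tested genes those shares were 19.8% and 20.6%. Among the 9, UBTF fell by 14.8% and POLR1A by 30.1%, the smallest and the largest fall. The calls depended on single libraries: 0 members were called without untreated replicate 2, 1 without untreated replicate 1, and 5, 4 and 5 without replicates 1, 2 and 3 at 96 h. Calls over all tested genes fell in the same runs. They went from 759 to 425, 620 and 431 without replicates 1, 2 and 3 at 96 h. The median of the members stayed between -0.22 and -0.16 when each of the 14 libraries was left out in turn. With a term for the 2 library sets of the antisense index, 1 member, NCL, was called (adjusted p = 0.0409) and the median was -0.18. Only the groups at 48 h and 72 h held libraries of both sets, so the size of that term came from those times. It was carried over to 96 h against untreated cells, where it cannot part the exposure from the library sets.

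**Figure D2:**
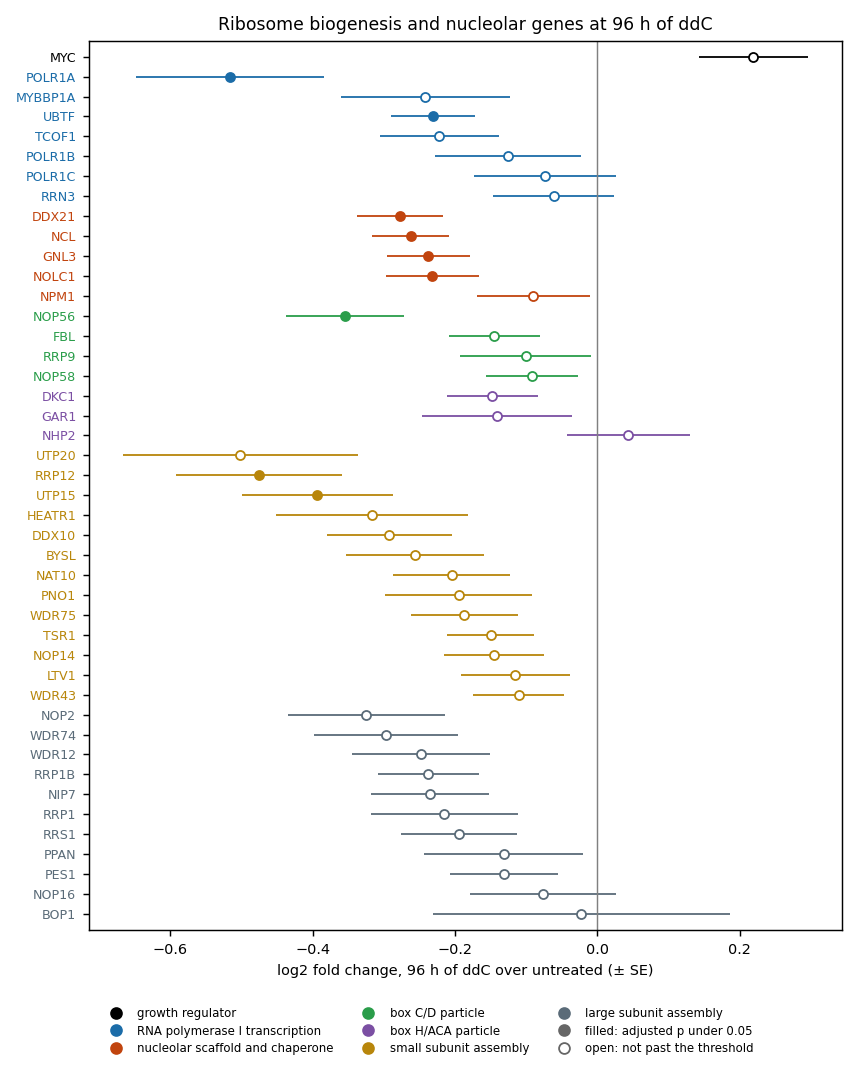
Log2 fold change at 96 h of ddC over untreated cells (points, ± SE) for the 44 members grouped by role, with filled points at an adjusted p under 0.05. All members but MYC and NHP2 lie left of 0, and the nucleolar scaffold group has the most filled points, 4 of 5.

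RNA polymerase I transcription held both the largest and some of the smallest differences. POLR1A, the largest subunit of RNA polymerase I (NM_015425, chr2:86251569-86333278 on hg19, minus strand), had 49.1, 43.8 and 44 CPM at 96 h, against 63.0 and 67.5 CPM in untreated cells. The 2 groups did not overlap, and POLR1A fell by 0.52 ± 0.13 on the log2 scale (SE; adjusted p = 0.0331). That call ended in 8 of the 14 runs that left out a library, namely replicate 1 at 24, 48 or 72 h, any at 96 h, or either untreated one (at most adjusted p = 0.285), and with the library set term (0.356). Its replicates at the times between were widely spread, at 56.1, 65.4 and 48.7 CPM at 24 h, 55.8, 64.5 and 56.0 CPM at 48 h, and 56.6, 63.4 and 45.4 CPM at 72 h. UBTF, the upstream binding factor that coats active ribosomal DNA (NM_014233, chr17:42282401-42297041, minus strand), was much tighter. It had 130, 124.1 and 124.2 CPM at 96 h, against 147.1 and 148.8 CPM in untreated cells, and fell by 0.23 ± 0.06 (adjusted p = 0.0217). The call ended without either untreated library or without replicate 2 or 3 at 96 h (at most adjusted p = 0.184). TCOF1, which encodes treacle, and MYBBP1A, a nucleolar MYB-binding protein, had log2 fold changes of -0.22 and -0.24 and were not called. Under the library set term they were at -0.06 and -0.10. The second largest subunit POLR1B had 24.3, 25.4 and 20.4 CPM at 96 h, against 24.5 and 26.5 CPM in untreated cells, and these overlapped. RRN3, the factor that brings the polymerase to the promoter, had 57.7, 63.4 and 59.3 CPM at 96 h, against 63.8 and 61.7 CPM in untreated cells, which also overlapped (log2 fold change -0.06 ± 0.09). POLR1C, a subunit shared with RNA polymerase III, was at -0.07. Under the set term RRN3 was at -0.16 and POLR1C at -0.00765. Whether POLR1A differed from POLR1B or RRN3 in its response was not tested. Reads of 3 pseudogene copies of RRN3, RRN3P1 to RRN3P3, averaged 0.558 to 1.41 CPM beside 59.2 CPM for RRN3, and how shared reads were assigned is not given in the sources used here.

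The nucleolar scaffold and chaperone genes held the most calls, with 4 of 5 lower at 96 h. NCL (NM_005381, chr2:232319459-232329205 on hg19, minus strand) had 997.3 and 993.1 CPM in untreated cells, 960.2, 885.6 and 928.2 CPM at 24 h, 946.3, 895.5 and 956.9 CPM at 48 h, 874.5, 902.4 and 924.0 CPM at 72 h, and 844.5, 848.9 and 795.9 CPM at 96 h. Every treated library lay below both untreated ones, and the 96 h libraries lay below all others. NCL fell by 0.26 ± 0.05 on the log2 scale at 96 h (adjusted p = 0.0049), the smallest p of the 44 members. Its call ended only without an untreated library (highest adjusted p = 0.0652) among the 14 runs that left 1 out. DDX21, a DEAD-box helicase that senses RNA polymerase I activity (chr10:70715879-70744825 on hg19, plus strand), and whose E-box is printed above, had 208.0, 212.5 and 196.7 CPM at 96 h, against 253.0 and 245.6 CPM in untreated cells. It fell by 0.28 ± 0.06 (adjusted p = 0.00759), with no overlap, and among those runs its call too ended only without either untreated library (at most adjusted p = 0.103). GNL3, the GTPase nucleostemin (chr3:52719936-52728510 on hg19, plus strand), had 97.8, 99.9 and 92.6 CPM at 96 h, against 115.2 and 112.9 CPM in untreated cells, and fell by 0.24 ± 0.06 (adjusted p = 0.0184). The call ended without either untreated library or without replicate 1 or 3 at 96 h (at most adjusted p = 0.147). NOLC1, a chaperone of small nucleolar RNA particles (chr10:103911933-103923628 on hg19, plus strand), had 122.2, 124.0 and 114.2 CPM at 96 h, against 140.5 and 141.7 CPM in untreated cells. Its fall of 0.23 ± 0.07 had the largest adjusted p of the 9 (0.0384). The call ended with the replicate block (adjusted p = 0.0659) and without replicate 1 or 2 at 72 h, any library at 96 h, or either untreated one (at most adjusted p = 0.253). NPM1, the histone and ribosomal protein chaperone nucleophosmin, was the exception in this group. It had 207.2, 224.5 and 202.1 CPM at 96 h, against 233.6 and 216.1 CPM in untreated cells, and these overlapped (log2 fold change -0.09 ± 0.08, adjusted p = 0.577, and -0.18 under the set term).

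**Figure D3:**
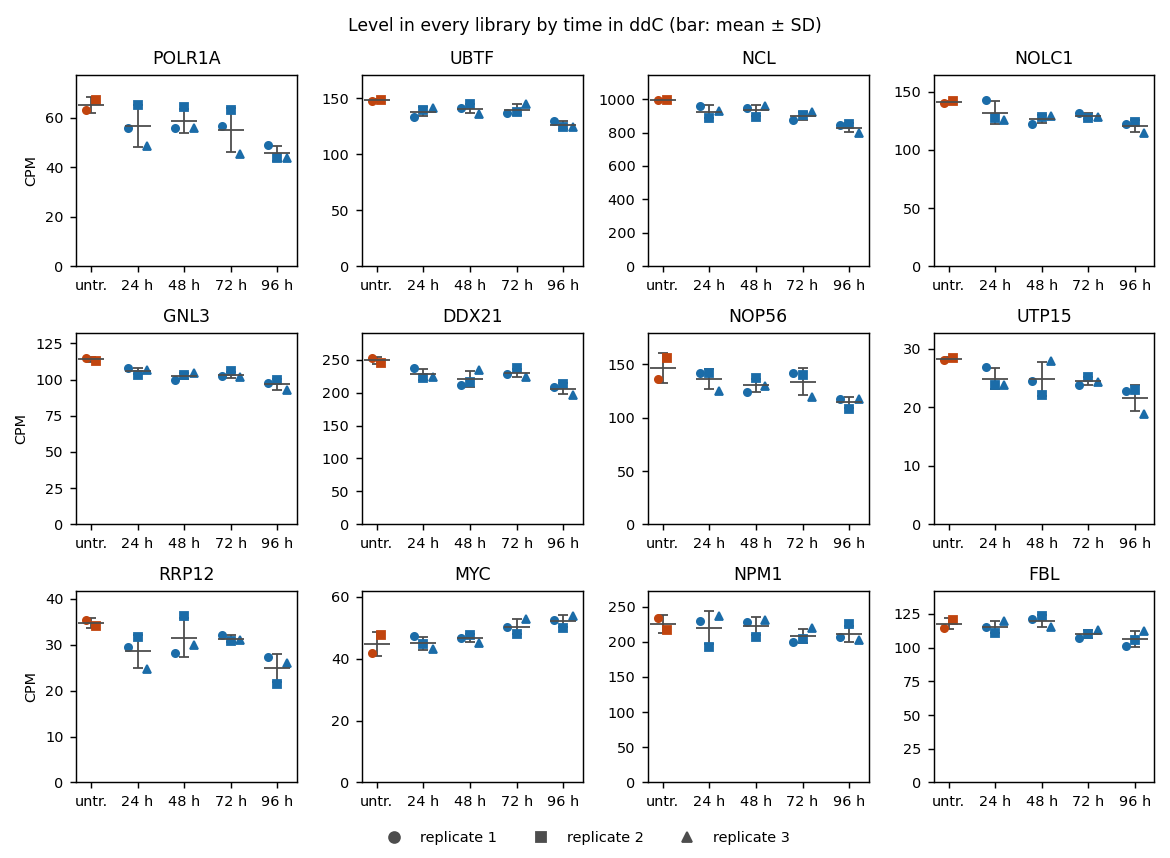
Level in CPM in every library of the 9 members called at 96 h and of MYC, NPM1 and FBL, by time in ddC (points by replicate number, bars mean ± SD, axes from 0). The 9 called genes have their lowest mean at 96 h, MYC has its highest there, and POLR1A and RRP12 show wide scatter between replicates of the same time.

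Among the box C/D proteins, which carry out methylation, 1 of 4 was called. NOP56, a core scaffold of the particle (chr20:2633178-2639039 on hg19, plus strand), had 118.0, 108.2 and 117.2 CPM at 96 h, against 136.3 and 156.4 CPM in untreated cells. It fell by 0.35 ± 0.08 on the log2 scale (adjusted p = 0.0123), and the groups did not overlap. Its call ended without untreated replicate 2 or without replicate 2 at 96 h (at most adjusted p = 0.303). FBL, the methyltransferase fibrillarin, had 101.3, 105.4 and 112.7 CPM at 96 h, against 114.8 and 120.5 CPM in untreated cells. These did not overlap, but the difference of -0.14 ± 0.06 did not pass (adjusted p = 0.211). NOP58, the partner of NOP56, and RRP9, a protein of the particle that acts in the earliest cleavages, were at -0.09 (-0.15 under the set term) and -0.10. Of the box H/ACA proteins, 0 of 3 were called (1 at an unadjusted p under 0.05). DKC1, the pseudouridine synthase dyskerin, had 94.2, 103.6 and 96.3 CPM at 96 h, against 104.4 and 112.7 CPM in untreated cells, with a log2 fold change of -0.15 ± 0.06 (adjusted p = 0.197). GAR1 was at -0.14 and NHP2 at 0.04 ± 0.09 (-0.24 and 0.00775 under the set term), and NHP2 had 44.7, 42.9 and 39.1 CPM at 96 h, against 40.8 and 41.2 CPM in untreated cells.

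The 13 small subunit assembly factors were all below 0 at 96 h, with a median log2 fold change of -0.21, and 2 were called. RRP12, a nuclear factor in pre-ribosome export (chr10:99116458-99161127 on hg19, minus strand), had 27.4, 21.5 and 26.1 CPM at 96 h, against 35.5 and 34.0 CPM in untreated cells. It fell by 0.48 ± 0.12 (adjusted p = 0.0179). UTP15, which links the processing machinery to transcription (chr5:72861566-72879202 on hg19, plus strand), had 22.8, 22.9 and 18.9 CPM at 96 h, against 28.1 and 28.5 CPM in untreated cells, and fell by 0.39 ± 0.11 (adjusted p = 0.0307). Neither overlapped its untreated libraries, and each call ended without either untreated library and without 1 or more libraries at 96 h, at most at adjusted p = 0.155 for RRP12 and 0.219 for UTP15. UTP20, a very large scaffold of the early particle, had 42.8, 38.6 and 40.8 CPM at 96 h, against 53.3 and 62.0 CPM in untreated cells. That difference of -0.50 ± 0.16 was among the largest of the 44 but did not pass in edgeR (adjusted p = 0.104) or limma-voom (0.119). UTP20 was called by DESeq2 (adjusted p = 0.0179) and when the edgeR fit held the compared groups alone (1.86e-05). HEATR1, of the same size class, was at -0.32 ± 0.14 (adjusted p = 0.207). DDX10, a helicase, had 35.9, 38.9 and 37.8 CPM at 96 h, against 47.4 and 44.4 CPM in untreated cells (log2 fold change -0.29 ± 0.09, adjusted p = 0.0543). The other 8 (BYSL, NAT10, PNO1, WDR75, TSR1, NOP14, LTV1 and WDR43) lay between -0.26 and -0.11. TSR1, NOP14 and HEATR1 each overlap a gene on the other strand (SRR, NOP14-AS1 and LGALS8), and the strand setting of the counting is not given in the sources used here, so their counts are less certain.

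The 11 large subunit assembly factors were also all below 0, at a median of -0.22, but 0 passed (7 at an unadjusted p under 0.05). The nearest was RRP1B, which had 66.6, 62.1 and 61.8 CPM at 96 h, against 75.0 and 74.7 CPM in untreated cells (log2 fold change -0.24 ± 0.07, adjusted p = 0.0527). WDR74 had 20.7, 22.4 and 24.6 CPM at 96 h, against 26.4 and 29.1 CPM in untreated cells (-0.30 ± 0.10, adjusted p = 0.0894). Both sets of values were separate from the untreated ones. The largest difference was in NOP2, an rRNA methyltransferase, at -0.32 ± 0.11 (adjusted p = 0.0952). The PES1, BOP1 and WDR12 proteins form a complex, and their transcripts lay at -0.13 (-0.06 under the set term), -0.02 and -0.25. BOP1 was near the lower end of detection with 4.49, 4.70 and 4.88 CPM at 96 h, against 4.77 and 4.76 CPM in untreated cells, and its SE of 0.21 leaves its direction undetermined. PPAN lies inside the readthrough gene PPAN-P2RY11, which had 23.1 CPM on average beside 24.8 CPM for PPAN, so how reads were shared between them is uncertain. NOP16 overlaps HIGD2A on the other strand.

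MYC had the opposite sign. It stood at 42.0 and 47.5 CPM in untreated cells, 47.2, 44.6 and 43.1 CPM at 24 h, 46.7, 47.7 and 45.1 CPM at 48 h, 50.2, 47.9 and 52.7 CPM at 72 h, and 52.5, 49.9 and 53.9 CPM at 96 h. The libraries at 72 and 96 h all lay above both untreated libraries. The difference at 96 h was 0.22 ± 0.08 on the log2 scale and did not pass (unadjusted p = 0.00973, adjusted p = 0.101). It was 0.13 without untreated replicate 1 and 0.31 without untreated replicate 2. In the MYC network list, 10 of 11 genes were tested, and 0 were called at 96 h against untreated cells (2 at an unadjusted p under 0.05). Both of these encode MAX partners that repress at E-boxes. MXI1 had 17.6, 17.9 and 15.9 CPM at 96 h, against 13.96 and 13.49 CPM in untreated cells (log2 fold change 0.32 ± 0.11, adjusted p = 0.0973), and MXD4 had 70.5, 62.3 and 77.2 CPM at 96 h, against 54.8 and 60.1 CPM in untreated cells (0.29 ± 0.12, adjusted p = 0.193). Against 24 h, where MXI1 had 11.7, 13.4 and 13.2 CPM, it rose by 0.42 ± 0.10 at 96 h (adjusted p = 0.0197). That call ended without replicate 1 at 24 h or without replicate 1 or 2 at 96 h (at most adjusted p = 0.108), and under the library set term (0.455). At 24 and 48 h all MXI1 libraries lay below both untreated ones (48 h: log2 fold change -0.31 ± 0.12, unadjusted p = 0.0145, adjusted p = 0.827). In the linear trend over the treated times MXI1 rose by 0.15 ± 0.03 per 24 h (adjusted p = 0.00699), where 2.96% of all tested genes were called higher. Its slope was 0.136 to 0.1665 when each library was left out in turn. Among the members with a promoter, the median log2 fold change at 96 h was -0.20 in the 15 with CACGTG and -0.22 in the 21 without, and 2 of the 7 called members with a promoter, DDX21 and GNL3, had the letters.

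At the earlier times the same direction was visible in most members but 0 were called. At 24 h, 38 of 44 were below 0 against untreated cells, with a median of -0.08, where 48.1% of all tested genes were below 0. By edgeR 0 members were called at 24 h (2 at an unadjusted p under 0.05, both lower, and 0 by DESeq2 and limma-voom), as were 0% of all tested genes in the lower and 0% in the higher direction. At the unadjusted threshold 223 of the 13371 tested genes were lower and 234 higher. In 13 members all 3 libraries at 24 h lay below both untreated libraries, which held for 8.11% of all tested genes. The smallest p was that of RRP12, with 29.6, 31.6 and 24.6 CPM at 24 h, against 35.5 and 34.0 CPM in untreated cells (log2 fold change -0.28 ± 0.12, unadjusted p = 0.025, adjusted p = 0.999). DDX21 followed at -0.13 ± 0.06, with 237.4, 222.3 and 223.6 CPM at 24 h, and NCL at -0.11 ± 0.05. All libraries of this comparison lie on the low side of the antisense index.

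At 48 h, 34 members were below 0 at a median of -0.08, and at 72 h 36 were, at a median of -0.07. By edgeR 0 members were called at 48 h (4 at an unadjusted p under 0.05, all lower), where 0% of tested genes were called lower and 0.00748% higher. At 72 h 0 were called (5 lower and 1 higher at an unadjusted p under 0.05), where 0.0374% were called lower and 0.142% higher. DESeq2 and limma-voom also called 0 members at both times. At the unadjusted threshold in edgeR, 385 of the 13371 tested genes were lower and 419 higher at 48 h, and 436 and 532 at 72 h. The nucleolar scaffold group was below 0 in all 5 members at each time. At 72 h NCL was at -0.14 ± 0.05 and GNL3 at -0.14 ± 0.06, while MYC was at 0.17 ± 0.08. The 3 comparisons and that at 96 h share the same 2 untreated libraries, so their directions are not independent.

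**Figure D4:**
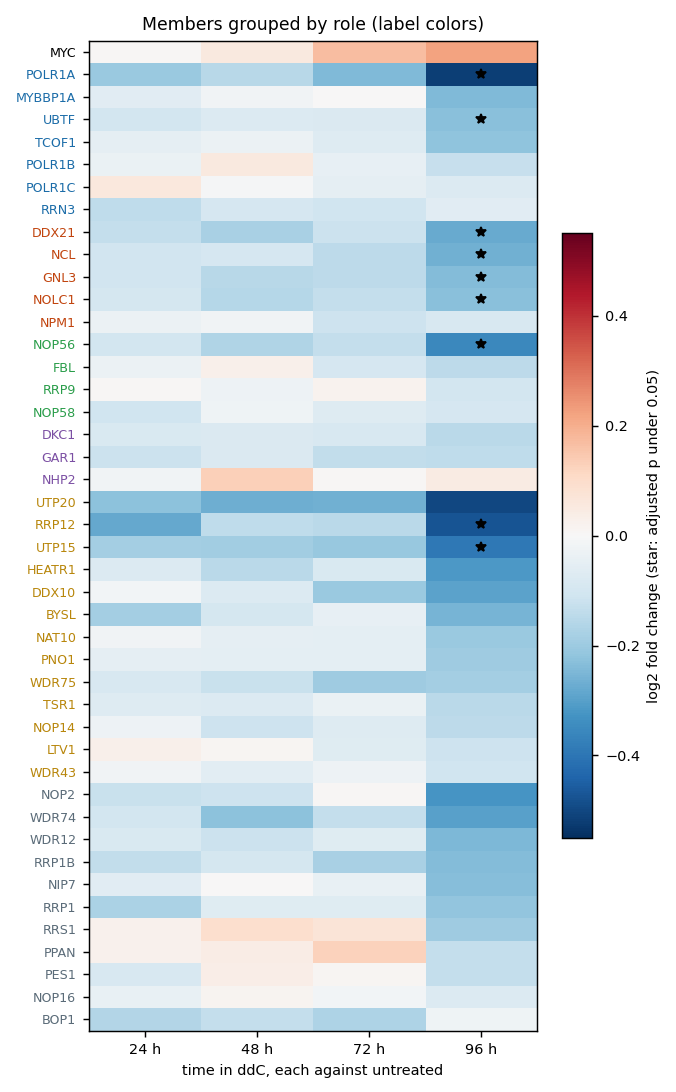
Log2 fold change of each member (rows, grouped by role) at 24, 48, 72 and 96 h of ddC, each against untreated cells, with stars at an adjusted p under 0.05. The stars stand at 96 h only, where 9 members were called, and MYC has the highest value of all rows at 72 and 96 h.

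Comparisons among the treated times do not use the untreated libraries in the contrast. At 96 h against 24 h, 39 members were below 0 at a median of -0.13, while 53.5% of all tested genes were below 0. By edgeR 0 members were called (14 lower and 1 higher at an unadjusted p under 0.05, and 1 by DESeq2 and 0 by limma-voom), where 0.621% of tested genes were called lower and 2.58% higher. At the unadjusted threshold 850 of the 13371 tested genes were lower and 1187 higher. The smallest p belonged to DDX10, with 35.9, 38.9 and 37.8 CPM at 96 h, against 50.7, 42.5 and 43.5 CPM at 24 h (log2 fold change -0.28 ± 0.08, adjusted p = 0.0607). It was followed by NOP56 at -0.25 ± 0.07 (adjusted p = 0.0719), NCL at -0.16 ± 0.05 (0.0873) and MYC at 0.21 ± 0.07 (0.104).

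Most members were also lower at 96 h than at 72 h. At 96 h against 72 h, a comparison added after the data were seen, 38 members were below 0 at a median of -0.12. In 17 members all 3 libraries at 96 h lay below all 3 at 72 h, which held for 7.24% of all tested genes. By edgeR 0 members were called (12 lower at an unadjusted p under 0.05, and 0 by DESeq2 and limma-voom), where 0.0598% of tested genes were called lower and 0.456% higher. At the unadjusted threshold 676 of the 13371 tested genes were lower and 868 higher. Without replicate 1 at 72 h, which leaves only libraries on the high side of the antisense index, 39 of 44 members were below 0 at a median of -0.11. The index was still higher at 96 h (0.912 to 0.946) than in the libraries left at 72 h (0.878 and 0.883). Time in ddC and the index therefore cannot be told apart in that run either. RRS1, a large subunit factor with 41.7, 42.0 and 45.4 CPM at 96 h, against 50.6, 49.6 and 55.0 CPM at 72 h, had the smallest p (log2 fold change -0.27 ± 0.07, adjusted p = 0.118). It is named here after its values were seen.

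A linear trend over 24, 48, 72 and 96 h gave a median slope of -0.04 on the log2 scale per 24 h, with 39 of 44 members below 0. DDX10 fell by 0.10 ± 0.03 per 24 h (adjusted p = 0.0317) and was the 1 member called, where 0.8% of all tested genes were called lower and 2.96% higher. Its 3 libraries stood at 50.7, 42.5 and 43.5 CPM at 24 h, 46.7, 40.1 and 43.9 CPM at 48 h, 38.8, 38.8 and 42.1 CPM at 72 h, and 35.9, 38.9 and 37.8 CPM at 96 h. That call ended without replicate 1 at 24 h or without any 1 of the 3 libraries at 96 h (at most adjusted p = 0.182), and under the library set term (0.309). MYC had a slope of 0.08 ± 0.02 (adjusted p = 0.0578), NCL of -0.05 ± 0.02 (0.0613) and NOP56 of -0.07 ± 0.02 (0.102).

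The members also varied with the nuclear RNA measure within groups, and in opposite directions. Fitted beside the group means, the slope per unit of that measure was 0.16 ± 0.03 on the log2 scale for UTP20, 0.14 ± 0.02 for HEATR1, 0.14 ± 0.02 for POLR1A, 0.13 ± 0.02 for NOP2 and 0.11 ± 0.02 for MYBBP1A. At 72 h, for example, UTP20 had 52.8 and 55.1 CPM in the 2 libraries with a high measure and 36.0 CPM in replicate 3, where it was low. NPM1 and PNO1, an assembly factor of the small subunit, ran the other way at -0.07 ± 0.02 and -0.09 ± 0.03. NCL, GNL3, UBTF and DDX21 lay between -0.02 and 0.01. The median slope was 0.003 over the 44 members and -0.00725 over all tested genes. With the measure as a covariate 21 members were called at 96 h, 20 lower and MYC higher (adjusted p = 0.0329), while calls over all tested genes also went up, to 874 lower and 968 higher, against 282 and 477 without it. With the covariate UTP20 was at -0.44 ± 0.08 (adjusted p = 0.000191) and POLR1A at -0.46 ± 0.07.

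Longer members had lower log2 fold changes at 96 h. Across the 44 members the Spearman correlation of the log2 fold change with transcript length was -0.47, and across all 13371 tested genes it was -0.22. The points share the same libraries, and genes are not independent, so these are descriptions. The 22 members longer than the median length had a median log2 fold change of -0.24, and the 22 shorter ones -0.14, so both groups lay below 0. UTP20 (8946 bases), POLR1A (8483) and HEATR1 (8437) were the longest, and the same 3 had the steepest slopes on the nuclear RNA measure. The part of transcript length in the differences was not tested.

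**Figure D5:**
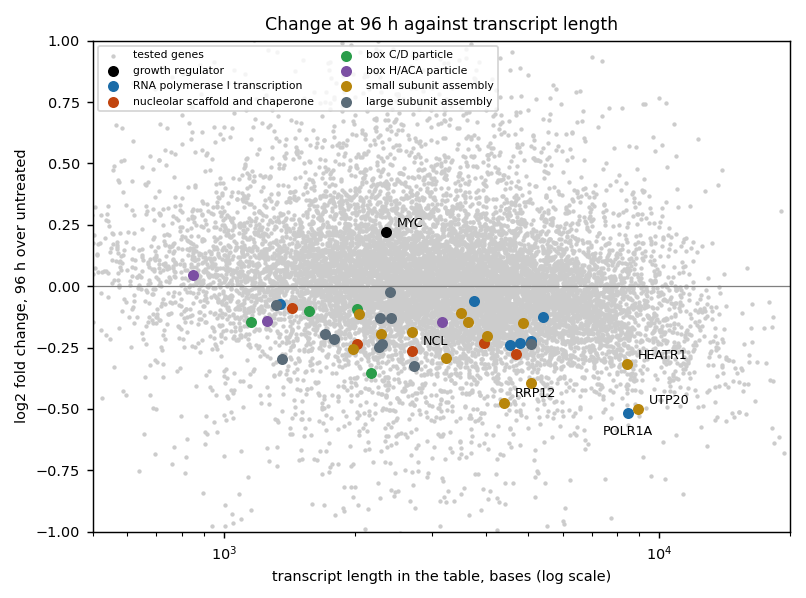
Log2 fold change at 96 h of ddC over untreated cells against transcript length in bases (log scale) for all tested genes (grey) and the 44 members (coloured by role). All members but MYC and the shortest, NHP2, lie below 0, with POLR1A and UTP20 among the longest and the lowest, and 122 tested genes lie beyond the plotted range of 1 on the log2 scale.

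Other genes of the pathway were read from a list of 129, all of which were tested. At 96 h 104 of the 129 were below 0, at a median of -0.11, and edgeR called 11 lower and 0 higher (33 and 1 at an unadjusted p under 0.05), where 50.8% of all tested genes were below 0, 2.11% were called lower and 3.57% higher. EXOSC9, a subunit of the RNA exosome, had 64.5, 67.8 and 62.0 CPM at 96 h, against 80.2 and 80.0 CPM in untreated cells, and fell by 0.31 ± 0.07 (adjusted p = 0.00692). URB2, a large subunit factor, had 19.1, 16.5 and 17.6 CPM at 96 h, against 23.9 and 24.7 CPM in untreated cells, and fell by 0.46 ± 0.10 (adjusted p = 0.00803). The libraries of the 2 groups did not overlap in either gene, and both calls ended only without either untreated library (at most adjusted p = 0.121) and under the library set term. DDX55, a helicase, fell by 0.49 ± 0.12 (adjusted p = 0.0161), and NOL11, of the same early subcomplex as UTP15, by 0.29 ± 0.07 (adjusted p = 0.0213). The DDX55 call also ended without replicate 2 or 3 at 96 h and the NOL11 call without replicate 1 at 96 h. The other 7 called were DHX33, XRN2, LAS1L, MRTO4, FTSJ3, NOC2L and GNL3L, with log2 fold changes between -0.32 and -0.23. On the other side GLTSCR2 was at 0.26 ± 0.10 (adjusted p = 0.115), EXOSC4 at 0.19, IMP3 at 0.11 and WDR18 at 0.16, and none of these 4 was called. The count of 11 dropped to 1 without untreated replicate 1 and 0 without untreated replicate 2, to 4, 6 and 5 without replicates 1, 2 and 3 at 96 h, and to 0 under the library set term. Calls over all tested genes also fell in those runs. At 24, 48 and 72 h 0 of the 129 were called by edgeR, DESeq2 or limma-voom, with medians of -0.04, -0.01 and -0.06. At an unadjusted p under 0.05 in edgeR, 5 were lower at 24 h, 1 was higher at 48 h and 10 were lower at 72 h. The shares below 0 were 72.1%, 58.9% and 72.1%, beside 48.1%, 49% and 48.7% of all tested genes. In the trend URB2 fell by 0.11 ± 0.03 per 24 h (adjusted p = 0.0388) and EXOSC9 by 0.07 ± 0.02 (adjusted p = 0.0436). The 2 trend calls both ended without replicate 1 at 24 h, replicate 1 or 2 at 72 h, replicate 3 at 96 h or either untreated library. They also ended with DESeq2, with the replicate block, with the compared groups alone in the fit, and under the library set term.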

How the data were processed

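The authors deposited 1 table of raw counts per gene for 14 libraries, with RefSeq transcript identifiers, lengths and hg19 coordinates in its header columns. Per the submitters' processing notes, STAR 2.5.3a, HOMER and hg19 were used. The strand setting is not given in the sources used here. Each column was matched to its sample by title, and 0 columns were left unmatched.

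The counts were tested with edgeR 4.0.16 in R 4.3.3, using TMM factors and filterByExpr (minimum count 10, minimum total 15). The quasi-likelihood fit was robust and took in the 14 libraries together, with a mean for each of the 5 groups. The threshold was a two-sided p under 0.05 after Benjamini-Hochberg adjustment over all tested genes of a comparison. CPM are counts per scaled total times 1e+06. SE is the absolute log2 fold change over the root of F. The fit was checked on simulated data whose changes were larger than that of any member at 96 h, so recovery at the sizes reported here was not checked. Replicates are called biological in the study's text, and none of the 13 pairs within a group agreed within sampling noise.

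The 44 members and the lists were chosen with earlier results of these data known, so no test was run over a list. Values in each library at 96 h and in untreated cells are given for 10 fixed members. They are also given for the 12 with the smallest p and the 3 with the highest log2 fold change at 96 h. For the 3 with the smallest p at 24 h, the libraries at 24 h are given too. The libraries of the other times are given for only some of these members. The 4 smallest p were taken for 96 h against 24 h, the trend, and each direction of the wider list. MYC network genes were named at an unadjusted p under 0.05.

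Alternatives were median-ratio factors, DESeq2 1.42.0, limma-voom (limma 3.58.1), no filter, a replicate block, only the compared groups, the nuclear RNA measure as a covariate, each library left out, and the 250 bases before the start. A library set term was added after seeing the data. It parts the libraries at the widest gap of the antisense index, between 0.791 and 0.878. Only the groups at 48 h and 72 h hold libraries of both sets, so the size of the term is estimated from them and carried over to the other groups. The index used neighbours of genes averaging at least 300 CPM whose reads were at most 1% of theirs. Promoters are from the RefSeq table on GRCh38.p14, joined by symbol. Comparison of paralog proteins was not run.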

Additional observations from a re-analysis of the deposited data

How the results depend on the processing

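The median of the 44 members stayed below 0 in every comparison under each alternative run. At 96 h against untreated cells, 9 members were called, and 21 with the nuclear RNA measure as a covariate, 17 when the fit held the compared groups alone, and 1 under the library set term, where the median was -0.177. Calls over all tested genes moved the same way, with 759 in the fit as reported and 1842, 1646 and 135 under those settings. Of the wider list 11 were called, and 29, 26 and 0 under those settings and 7 with the replicate block. Median-ratio factors and limma-voom called the same 9 members at 96 h. DESeq2 called these and UTP20 (adjusted p = 0.0179), and edgeR without a filter called these and DDX10 (adjusted p = 0.0473). At 96 h against 24 h 1 member was called with DESeq2, without a filter and with the replicate block, and 7 members and 9 wider genes with the covariate. The covariate also gave 1 wider gene at 48 h, 2 members and 2 wider genes at 72 h, and 2 members (median -0.099) and 1 wider gene at 96 h against 72 h. In the trend 1 member was called, and 2 with median-ratio factors, DESeq2 or the replicate block, 7 with the covariate and 0 with the set term. All tested genes gave 503 calls in the trend, and 530, 494, 556, 1267 and 95 under those settings in the same order. Of the wider list 2 were called in the trend, and 10 with the covariate, 1 without a filter, and 0 with DESeq2, the replicate block, the compared groups alone or the set term. The cause of these differences was not tested.

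Leaving out each library in turn gave 0 to 13 called members at 96 h (median -0.22 to -0.164), and 0 to 15 genes of the wider list. It gave 0 members at 24, 48 and 72 h, with medians of -0.105 to -0.058, -0.0888 to -0.0553 and -0.115 to -0.0586. At 96 h against 24 h it gave 0 to 3 members and 0 to 2 wider genes (median -0.138 to -0.108), and at 96 h against 72 h 0 to 2 members and 0 to 2 wider genes (median -0.119 to -0.0954). The trend gave 0 to 3 members and 0 to 3 wider genes (median slope -0.0415 to -0.0294). A lone untreated library is then assumed to vary like the other groups. With a treated library left out, calls over all tested genes ran from 425 to 1034 at 96 h against untreated cells. They ran from 223 to 545 at 96 h against 24 h, 5 to 243 against 72 h, and 280 to 537 in the trend. BOP1, at -0.02, turned to 0.0317 with the replicate block and 0.23 with the set term, and ranged from -0.0537 to 0.00776 (without replicate 1 at 96 h) over the left-out libraries.

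Whether the replicate numbers pair the samples was left undecided by correlations of deviations from the group means. In groups of 2 or 3 libraries the deviations of one library fix or limit those of the others. Of 26 same-number pairs 12 had a correlation of deviations over 0.1 (range -0.619 to 0.813), and 7 of 14 libraries matched best with their own number. With the replicate block 8 members were called at 96 h, without NOLC1 (adjusted p = 0.0659). CACGTG stood in 8.33% of the members when only the 250 bases before the start were read, beside 11.1% of the tested genes, so the members were not above the tested genes there. By construction that window leaves out the E-boxes after the start. With 2 untreated libraries, changes of this size sit close to the threshold.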
